A study of Mus musculus with 12 samples.

Results

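Chemokines are small secreted proteins that set up gradients along which leukocytes and other cells migrate. They are classed by the spacing of conserved cysteines (CC, CXC and CX3C), and they act through receptors coupled to G proteins, while atypical receptors bind chemokines without that coupling and remove or redistribute them. In muscle they are known for drawing monocytes and other leukocytes into injured tissue, and CXCL12 with its receptor CXCR4 is also known from the migration of muscle progenitors. The chemokine genes described here were taken by symbol, as the genes named Ccl, Cxcl, Ccr, Cxcr or Ackr with a number, plus the CX3C pair. The interferon-induced ligands Cxcl9 and Cxcl10 were left out by that rule. It took 51 of the 19937 genes measured, namely 19 CC ligands, 11 CXC ligands, 1 CX3C ligand, 9 CC receptors, 6 CXC receptors, 1 CX3C receptor and 4 atypical receptors.

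The study concerns rhabdomyosarcoma, a soft tissue cancer whose cells resemble immature muscle, and the part played in it by YAP1, a transcriptional co-activator that Hippo signalling restrains. All groups came from mice of 1 genotype, Myf5Cre with R26-LSL-rtTA and Col1a-Teto-hYAP1 S127A on a C57BL/6 background, in which doxycycline switches on a mutant human YAP1 in cells with a history of Myf5, a muscle progenitor gene. Donors were given doxycycline for 4 weeks, interstitial cells of their hindlimb muscle were grafted into the gastrocnemius of NOD/SCID hosts on doxycycline, and the allograft tumours were taken at day 0 of doxycycline removal (TUM), 3 days after it (OFF3) and 6 days after it (OFF6). The control (CTL) was hindlimb muscle from mice of that genotype without induction. Each group had 3 arrays, and nothing in the labels says that they came from separate animals, so p-values cover only the spread seen among these samples, which may be technical. NOD/SCID hosts lack mature T and B cells but keep myeloid cells. Tumour arrays read graft and host cells together while CTL muscle came from no such host, so tumour, host strain and host immune state cannot be told apart in any comparison with CTL. In these bulk samples fewer cells of a type and less RNA per cell cannot be told apart either. No tumour group was kept on doxycycline for those 3 or 6 days, so its removal and time in the host cannot be told apart.

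Levels are log2 of the deposited intensity, in which 1 unit is a 2-fold difference, and they compare arrays for 1 probe set but not 1 gene with another. Differences between groups are in log2 units and carry their standard error after ±. An adjusted p under 0.05 from limma, a linear model fitted across all genes with Benjamini-Hochberg adjustment, was taken as a change. As a yardstick for dim signal, 1027 olfactory receptor genes, not known to be active in muscle, had a 95th percentile of 5.63, and a group mean at or below it is called within the olfactory range. Median intensity per array ran from 86.7 to 93.0. The mouse Yap1 probe set, whose reading of the human transgene is not known, averaged 9.86 ± 0.03 in TUM, 9.57 ± 0.05 in OFF3, 9.61 ± 0.10 in OFF6 and 9.56 ± 0.12 in CTL (SD, n = 3). Skeletal muscle markers summed to an intensity of 22714 to 23869 in TUM, 34111 to 40449 in OFF3, 34756 to 39314 in OFF6 and 51326 to 52463 in CTL, with 9 of 9 over the olfactory range in every group. OFF6 replicate 2 stood apart from its group. Its mean correlation across genes was 0.991 with the other OFF6 arrays and 0.995 with the OFF3 arrays. Over the 37 chemokine genes above the olfactory range in some group, the median SD was 0.26 in OFF6, 0.15 in OFF3, 0.08 in TUM and 0.12 in CTL, and day 6 calls that changed without that array are given both ways.

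Of the 51 genes, 37 had promoter windows in the RefSeq table (GRCm38.p6, 39 windows of 250 bases before to 50 after the gene start). The 250 upstream bases of 4 genes are shown because at day 3 against TUM these 4 had the largest fall (Ccr1) and the 3 largest rises (Ccl8, Ccl17 and Ccl22) of the chemokine genes. Capitals mark a kappaB motif in Ccr1, 74 bases upstream, and a TEAD motif, GGAATG read on the opposite strand, in Ccl17, 135 bases upstream. TEAD factors carry YAP1 to DNA, and the kappaB motif is bound by NF-kappaB, a known inducer of inflammatory chemokines.
Ccr1, chr9:123968693-123968942, minus strand: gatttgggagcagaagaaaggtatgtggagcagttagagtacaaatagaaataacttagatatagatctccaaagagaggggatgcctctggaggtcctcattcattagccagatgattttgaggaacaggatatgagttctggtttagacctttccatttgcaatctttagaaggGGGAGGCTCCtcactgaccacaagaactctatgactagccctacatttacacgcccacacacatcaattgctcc
Ccl17, chr8:94810203-94810452, plus strand: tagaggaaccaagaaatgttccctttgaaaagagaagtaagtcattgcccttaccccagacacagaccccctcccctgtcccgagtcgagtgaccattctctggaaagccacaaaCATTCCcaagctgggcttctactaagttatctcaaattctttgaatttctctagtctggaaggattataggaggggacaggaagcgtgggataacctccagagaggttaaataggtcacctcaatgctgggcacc
Ccl22, chr8:94745434-94745683, plus strand: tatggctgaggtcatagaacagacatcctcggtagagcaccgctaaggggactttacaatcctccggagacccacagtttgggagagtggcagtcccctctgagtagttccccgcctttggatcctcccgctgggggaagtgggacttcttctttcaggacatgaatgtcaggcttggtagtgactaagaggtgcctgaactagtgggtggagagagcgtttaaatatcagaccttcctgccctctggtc
Ccl8, chr11:82114935-82115184, plus strand: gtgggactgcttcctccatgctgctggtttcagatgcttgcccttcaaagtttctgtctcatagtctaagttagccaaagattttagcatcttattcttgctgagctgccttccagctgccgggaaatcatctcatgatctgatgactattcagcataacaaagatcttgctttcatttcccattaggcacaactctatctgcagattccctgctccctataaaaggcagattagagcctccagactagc
The kappaB motif, searched on both strands, was in 10 of the 39 windows (25.6%), beside 8.46% of all 32851 windows of that length. Genes holding it were Ackr2, Ccl1, Ccl9, Ccl20, Ccr1, Ccr3, Ccr6, Cxcl1, Cxcl2 and Cxcl3. GGAATG, on either strand, was in 6 of 39 windows (15.4%), beside 14.7% of all windows, and no match overlapped a kappaB match. The neutrophil attractants Cxcl1, Cxcl2 and Cxcl3, from 1 block of chromosome 5, share the same kappaB letters, matched once on each strand with overlap, and are shown because none of these 3 genes passed the test at day 3 or day 6.
Cxcl1, chr5:90891164-90891194, plus strand: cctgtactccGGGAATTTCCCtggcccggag
Cxcl2, chr5:90903792-90903822, plus strand: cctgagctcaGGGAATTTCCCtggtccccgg
Cxcl3, chr5:90786018-90786048, plus strand: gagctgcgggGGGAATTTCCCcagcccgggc
A match describes letters only, and no match says nothing of a factor's binding elsewhere.

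After doxycycline removal several CC ligands rose and the receptor gene Ccr1 fell. At day 3, 15 of the 51 chemokine genes rose and 4 fell. Over all 19937 genes, 13.4% were higher, 16.0% lower and 29.4% passed in either direction. At day 6, 18 rose and 3 fell, where 14.9% of all genes were higher, 16.6% lower and 31.5% passed in all. By class, 9 of 19 CC ligands rose at day 3 and 11 of 19 at day 6, and none fell at either time by the adjusted limma test, with 1 and 2 of them lower at an unadjusted p under 0.05. Without OFF6 replicate 2, Ccl12 (-1.07 ± 0.17) and Ccl9 (-0.71 ± 0.06) fell at day 6, and the falls over the 51 genes then numbered 9. The median difference of the CC ligands was 0.25 at day 3 and 0.43 at day 6, against 0.02 and 0.05 over all genes. CXC ligands numbered 1 rise and 2 falls of 11 at day 3 and 1 of each at day 6. At least 2-fold changes were 4 rises and 1 fall at day 3, against 1.83% and 1.98% of all genes (3.81% together). At day 6 they were 5 rises and 2 falls, against 2.33% and 2.14% (4.47% together). OFF3 and OFF6 share the TUM arrays, so calls in the same direction at both times are not independent observations.

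**Figure D1:**
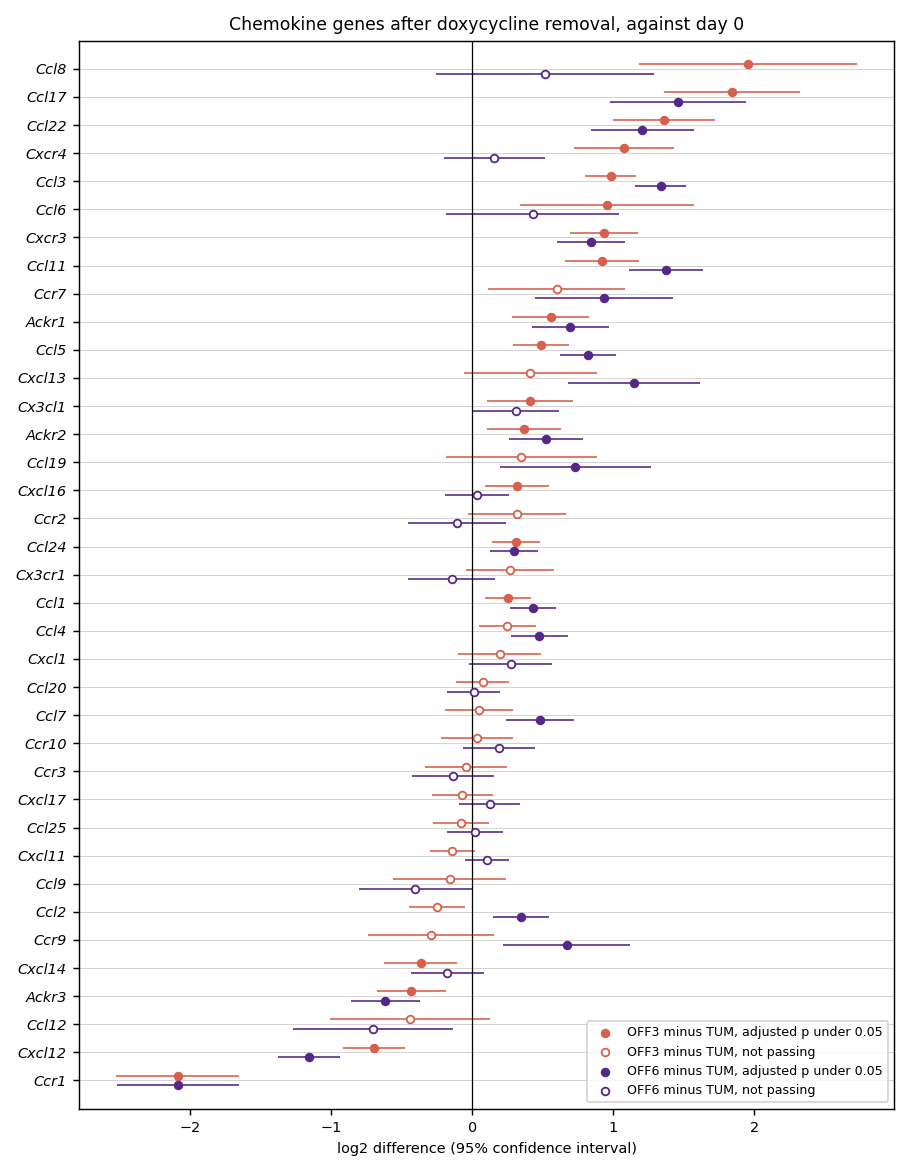
Log2 difference from TUM (x axis) of the 37 chemokine genes above the olfactory range in some group, at OFF3 and OFF6, with 95% confidence intervals and filled points for adjusted p under 0.05. Ccl8 stands highest at OFF3 (1.96) and its OFF6 interval spans 0, Ccl17 and Ccl22 lie above 0 at both times, and Ccr1 lies at -2.09 at both.

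Ccr1, a receptor for Ccl3, Ccl5 and other CC ligands on monocytes, macrophages and osteoclast precursors, fell most. Its level was 8.15, 7.89 and 8.32 in TUM, 6.52, 5.95 and 5.62 in OFF3, 5.80, 6.32 and 5.98 in OFF6, and 5.07, 4.81 and 4.98 in CTL. No regressing array reached the TUM range, and all tumour arrays lay above CTL. The difference was -2.09 ± 0.20 at day 3 (adjusted p = 7.02e-06) and -2.09 ± 0.20 at day 6 (adjusted p = 5.56e-06), 4.25-fold lower than TUM at both times. TUM exceeded CTL by 3.16 ± 0.20. CTL lay within the olfactory range, so the fold above CTL is poorly fixed. Of 9 osteoclast markers, 7 fell at day 3 and 9 at day 6, among them Oscar (-3.14 ± 0.10 at day 3) and Atp6v0d2 (-3.21 ± 0.15), where 16.0% and 16.6% of all genes were lower. Their summed intensity was 6814 to 7088 in TUM, 2860 to 2950 in OFF3, 2444 to 3190 in OFF6 and 1437 to 1547 in CTL. Their part in the Ccr1 fall was not tested. Of 15 macrophage markers, 4 rose and 2 fell at day 3, where 13.4% and 16.0% of all genes did. Mertk (mean 8.40 in TUM and 9.49 in OFF3) and Msr1 (10.81 and 9.69) differed most at day 3, in opposite directions. At day 6, 0 of the 15 rose by the adjusted limma test (1 higher at an unadjusted p under 0.05) and 3 fell. Over all genes, 14.9% rose and 16.6% fell at day 6. The summed intensity of the macrophage markers was 30826 to 31927 in TUM, 35531 to 37213 in OFF3 and 26375 to 36568 in OFF6. Their part in the Ccr1 result was not tested either.

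Ccl3 and Ccl5, which bind Ccr1, rose at both times. Ccl3 (MIP-1alpha), which attracts monocytes and T cells, measured 9.81, 9.74 and 9.79 in TUM, 10.84, 10.89 and 10.56 in OFF3, 11.07, 11.14 and 11.15 in OFF6, and 5.87, 5.90 and 5.76 in CTL. The 3 tumour groups did not overlap, each later time lying higher. Ccl3 rose by 0.98 ± 0.08 at day 3 (adjusted p = 2.25e-06) and by 1.34 ± 0.08 at day 6 (adjusted p = 1.62e-07), and OFF6 exceeded OFF3 by 0.35 ± 0.08 (adjusted p = 0.0194). Ccl5 (RANTES), another T cell and monocyte attractant, read 10.30, 10.14 and 10.21 in TUM, 10.90, 10.70 and 10.52 in OFF3, 10.94, 11.09 and 11.07 in OFF6, and 7.08, 6.92 and 7.02 in CTL. OFF3 and OFF6 arrays all lay above TUM, with a rise of 0.49 ± 0.09 at day 3 (adjusted p = 0.00132) and 0.82 ± 0.09 at day 6 (adjusted p = 1.97e-05). For Ccl4 (MIP-1beta), a monocyte and T cell attractant next to Ccl3 on chromosome 11, the arrays gave 6.07, 6.19 and 6.16 in TUM, 6.32, 6.57 and 6.28 in OFF3, 6.51, 6.79 and 6.56 in OFF6, and 6.03, 5.92 and 5.88 in CTL. OFF6 lay wholly above TUM, and so did OFF3. The rise passed at day 6 (0.47 ± 0.09, adjusted p = 0.00173) but not at day 3 (0.25 ± 0.09, adjusted p = 0.0644, 0.0483 without OFF3 replicate 3). The day 6 minus day 3 difference of Ccl4 was 0.23 ± 0.09 (adjusted p = 0.154).

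Ccl6 and Ccl9 are CC ligands known from rodents that bind CCR1, and of the pair Ccl6 rose at day 3. Ccl6 gave 8.71, 8.62 and 8.75 in TUM, 9.68, 9.68 and 9.58 in OFF3, 8.63, 10.09 and 8.66 in OFF6, and 8.45, 8.55 and 8.58 in CTL. OFF3 lay wholly above TUM, and in OFF6 only replicate 2 did. The rise at day 3 was 0.95 ± 0.28 (adjusted p = 0.0223), a call lost when TUM replicate 1, 2 or 3 or OFF3 replicate 1 or 2 was left out (adjusted p from 0.053 to 0.0661). Day 6 differed from TUM by 0.43 ± 0.28 (adjusted p = 0.29), and by -0.05 ± 0.07 without OFF6 replicate 2 (adjusted p = 0.577). Ccl9 was 9.64, 9.70 and 9.72 in TUM, 9.52, 9.50 and 9.57 in OFF3, 8.98, 9.89 and 8.97 in OFF6, and 8.19, 8.05 and 8.20 in CTL. It differed from TUM by -0.16 ± 0.18 at day 3 (adjusted p = 0.61) and -0.40 ± 0.18 at day 6 (adjusted p = 0.122). Without OFF6 replicate 2, the day 6 difference of Ccl9 was -0.71 ± 0.06 with adjusted p = 2.78e-06, a fall.

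The CC ligands Ccl2, Ccl7, Ccl12 and Ccl8 lie in 1 block of chromosome 11 with Ccl11 and Ccl1 (neighbours in GRCm38.p6), and they did not move as 1 group. All 4 were far above CTL in TUM. Ccl8 (MCP-2) had levels of 9.05, 9.14 and 9.14 in TUM, 11.14, 11.09 and 10.96 in OFF3, 8.97, 10.84 and 9.07 in OFF6, and 5.63, 5.85 and 5.90 in CTL. The OFF3 arrays lay above every TUM array, and OFF6 replicates 1 and 3 lay beside TUM while replicate 2 lay near OFF3. The rise at day 3 was 1.96 ± 0.36 (3.88-fold, adjusted p = 0.00115). Day 6 differed from TUM by 0.52 ± 0.36 (adjusted p = 0.313) and from OFF3 by -1.44 ± 0.36 (adjusted p = 0.0259). Leaving out OFF6 replicate 2 gave -0.09 ± 0.09 against TUM (adjusted p = 0.46) and -2.05 ± 0.09 against OFF3 (adjusted p = 6.63e-08). That fall from day 3 was no longer called without OFF6 replicate 1 or 3 or OFF3 replicate 1 or 2, or in a fit of the 6 arrays alone (adjusted p up to 0.163).

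Ccl2 (MCP-1), the main CCR2 ligand, showed 9.93, 9.79 and 10.02 in TUM, 9.75, 9.57 and 9.66 in OFF3, 10.12, 10.28 and 10.37 in OFF6, and 6.57, 6.79 and 6.55 in CTL. Its OFF3 arrays were the lowest of the tumour arrays and its OFF6 arrays the highest, and no tumour group overlapped another. The difference from TUM was -0.25 ± 0.09 at day 3 (adjusted p = 0.0558) and 0.35 ± 0.09 at day 6 (adjusted p = 0.0112). The day 6 call was lost without TUM replicate 2 or OFF6 replicate 3 (adjusted p from 0.0524 to 0.054). At day 3 Ccl2 was called lower without TUM replicate 2 or OFF3 replicate 1, with the filter on low values, with arrays centred on their median, with array weights and in a fit of the 6 arrays alone (adjusted p up to 0.0482). OFF6 exceeded OFF3 by 0.60 ± 0.09 (adjusted p = 0.00322). Ccl7 (MCP-3) had 10.42, 10.27 and 10.29 in TUM, 10.52, 10.39 and 10.22 in OFF3, 10.62, 11.06 and 10.74 in OFF6, and 6.60, 6.60 and 6.76 in CTL. The day 3 difference did not pass (0.05 ± 0.11, 95% confidence interval -0.19 to 0.29), and Ccl7 rose by 0.48 ± 0.11 at day 6 (adjusted p = 0.00469). Ccl12 (MCP-5), a mouse CCR2 ligand, stood at 8.61, 8.37 and 8.59 in TUM, 8.41, 8.08 and 7.76 in OFF3, 7.27, 8.56 and 7.63 in OFF6, and 5.44, 5.40 and 5.76 in CTL. OFF6 replicate 2 lay in the TUM range and replicates 1 and 3 below it. The day 6 difference of Ccl12 was -0.70 ± 0.26 (adjusted p = 0.0583), and without OFF6 replicate 2 it was -1.07 ± 0.17 (adjusted p = 0.0004).

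Ccr2, the receptor through which Ccl2, Ccl7 and Ccl12 recruit monocytes, was 8.40, 8.39 and 8.39 in TUM, 8.88, 8.75 and 8.49 in OFF3, 8.05, 8.74 and 8.05 in OFF6, and 6.22, 6.34 and 6.46 in CTL. The OFF3 arrays lay above TUM, and the OFF6 arrays lay on both sides of it. Differences from TUM were 0.32 ± 0.16 at day 3 (adjusted p = 0.175) and -0.11 ± 0.16 at day 6 (adjusted p = 0.637). Without OFF6 replicate 2 the day 6 difference was -0.34 ± 0.10 (adjusted p = 0.02). The summed macrophage markers ran the same way over the OFF6 arrays, at 36568 in replicate 2 and 26375 and 26557 in replicates 1 and 3. Replicate 2 also had the highest OFF6 sums of the lymphocyte and NK, neutrophil, osteoclast, endothelial and fibroblast markers, and the lowest of the skeletal muscle markers. The part of any of these markers in the spread of the OFF6 chemokine values was not tested.

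**Figure D2:**
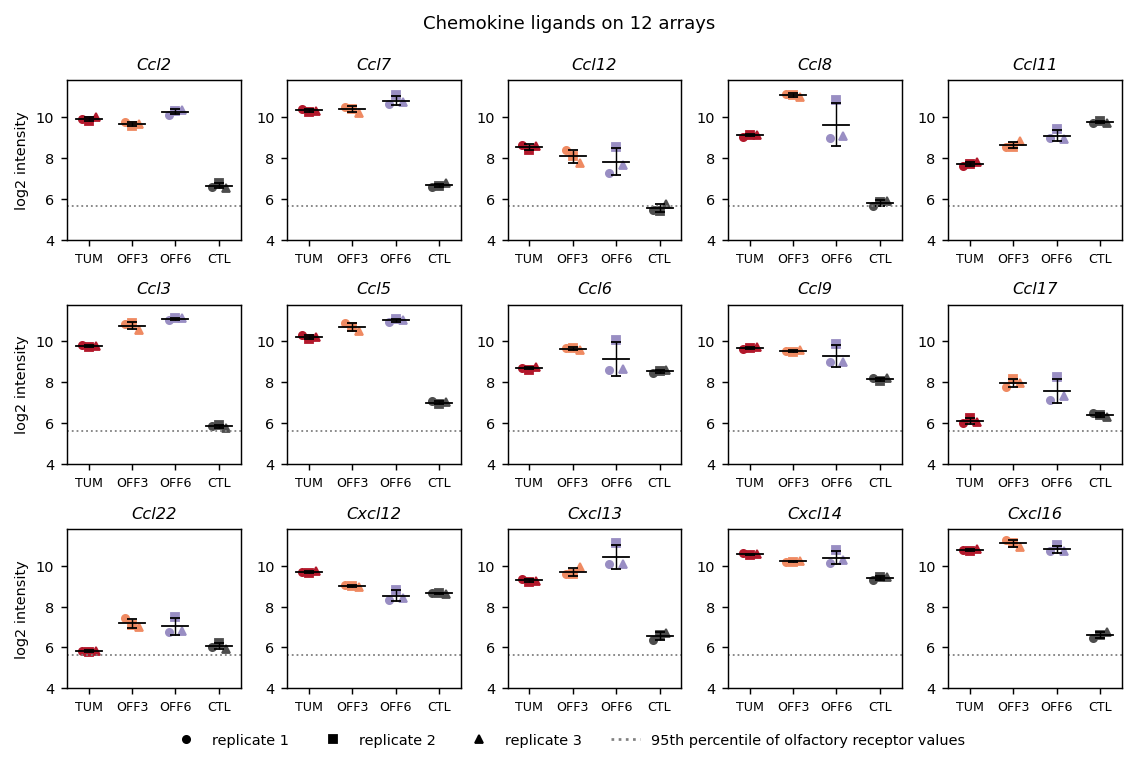
Log2 intensity (y axis) of 15 ligand genes on the 12 arrays by group (x axis), with bars for the mean ± SD and a dotted line for the 95th percentile of olfactory receptor values (5.63). Ccl3 and Ccl5 climb from TUM to OFF6, Ccl17 and Ccl22 lie above TUM on every OFF3 and OFF6 array, and OFF6 replicate 2 is far above the other OFF6 arrays for Ccl8 and Ccl6.

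Ccl17 and Ccl22, ligands of CCR4 known from dendritic cells and from attracting Th2 and regulatory T cells, rose together. Both lie on chromosome 8 on either side of Cx3cl1. Ccl17 had 6.01, 6.27 and 6.06 in TUM, 7.75, 8.14 and 7.97 in OFF3, 7.12, 8.25 and 7.33 in OFF6, and 6.48, 6.39 and 6.29 in CTL. Every OFF3 and OFF6 array lay above every TUM and CTL array. The rise over TUM was 1.84 ± 0.22 at day 3 (3.59-fold, adjusted p = 4.69e-05) and 1.46 ± 0.22 at day 6 (2.74-fold, adjusted p = 0.000264). Ccl22 read 5.84, 5.79 and 5.85 in TUM, 7.44, 7.11 and 7.02 in OFF3, 6.78, 7.50 and 6.83 in OFF6, and 6.0, 6.23 and 5.95 in CTL. Its groups separated in the same way, with a rise of 1.36 ± 0.17 at day 3 (2.57-fold, adjusted p = 5.39e-05) and 1.21 ± 0.17 at day 6 (adjusted p = 0.000123). TUM did not pass against CTL for either, at -0.27 ± 0.22 for Ccl17 (adjusted p = 0.272) and -0.23 ± 0.17 for Ccl22 (adjusted p = 0.217). OFF6 exceeded CTL by 1.18 ± 0.22 for Ccl17 and 0.98 ± 0.17 for Ccl22. The day 6 minus day 3 difference was -0.39 ± 0.22 for Ccl17 (adjusted p = 0.327) and, without OFF6 replicate 2, -0.73 ± 0.12 (adjusted p = 0.00066). Ccr4, their receptor, stayed within the olfactory range in every group, with means of 4.79 in TUM, 4.84 in OFF3, 4.93 in OFF6 and 4.95 in CTL. It differed from TUM at day 6 by 0.14 ± 0.07 (adjusted p = 0.155), and by 0.20 ± 0.06 without OFF6 replicate 2 (adjusted p = 0.0307).

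The eotaxins, which attract eosinophils through CCR3, were lower in tumours than in muscle. Ccl11 (eotaxin-1), also in the chromosome 11 block, gave 7.62, 7.71 and 7.80 in TUM, 8.55, 8.52 and 8.82 in OFF3, 8.96, 9.40 and 8.91 in OFF6, and 9.71, 9.82 and 9.73 in CTL. The groups did not overlap, each later tumour time lying nearer to CTL. TUM lay 4.12-fold below CTL (-2.04 ± 0.12, adjusted p = 6.93e-09), and Ccl11 rose over TUM by 0.92 ± 0.12 at day 3 (adjusted p = 9.73e-05) and 1.38 ± 0.12 at day 6 (adjusted p = 2.67e-06). OFF6 remained below CTL (-0.67 ± 0.12, adjusted p = 0.000373). Ccl24 (eotaxin-2) was 5.17, 5.31 and 5.13 in TUM, 5.49, 5.52 and 5.53 in OFF3, 5.56, 5.48 and 5.45 in OFF6, and 6.56, 6.26 and 6.41 in CTL. All tumour group means were within the olfactory range, and the difference of TUM from CTL was -1.21 ± 0.08 (adjusted p = 1.74e-08). Ccl24 rose over TUM by 0.31 ± 0.08 at day 3 (adjusted p = 0.00959) and 0.30 ± 0.08 at day 6 (adjusted p = 0.0111, 0.055 without TUM replicate 3). Ccr3 read 5.76 in TUM, 5.71 in OFF3, 5.62 in OFF6 and 5.40 in CTL as group means, close to the top of the olfactory range. Its day 6 difference was -0.13 ± 0.13 (adjusted p = 0.487), and -0.34 ± 0.07 without OFF6 replicate 2 (adjusted p = 0.00337). Fibroblast markers moved the same way as Ccl11 at day 3. Of 10, 7 were higher than TUM, where 13.4% of all genes were, led by Dpt (2.52 ± 0.21) and Lum (2.26 ± 0.26), and their summed intensity was 15214 to 15722 in TUM, 25282 to 26393 in OFF3, 18180 to 25771 in OFF6 and 12999 to 13634 in CTL. In TUM against CTL, 3 of the 10 fibroblast markers were higher and 6 lower (median -0.66), where 30.3% and 45.9% of all genes were. The part of the fibroblast markers in the Ccl11 result was not tested.

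Cxcl12, a ligand made by stromal cells, was lower after doxycycline removal, while its receptor Cxcr4 was higher at day 3. Cxcl12 had 9.71, 9.64 and 9.73 in TUM, 9.04, 9.0 and 8.96 in OFF3, 8.34, 8.83 and 8.44 in OFF6, and 8.66, 8.68 and 8.61 in CTL. The 3 tumour groups did not overlap, each later time being lower. The fall was -0.70 ± 0.10 at day 3 (adjusted p = 0.00022) and -1.16 ± 0.10 at day 6 (adjusted p = 2.6e-06), and OFF6 differed from OFF3 by -0.46 ± 0.10 (adjusted p = 0.0155). OFF6 differed from CTL by -0.11 ± 0.10 (95% confidence interval -0.33 to 0.11, adjusted p = 0.337), and by -0.26 ± 0.06 without OFF6 replicate 2 (adjusted p = 0.003). Cxcr4, carried by leukocytes and muscle progenitors, was 7.95, 8.07 and 8.05 in TUM, 9.18, 9.12 and 9.01 in OFF3, 7.98, 8.52 and 8.04 in OFF6, and 6.69, 6.18 and 6.02 in CTL. OFF3 lay wholly above the other groups. Cxcr4 rose by 1.08 ± 0.16 at day 3 (adjusted p = 0.000295), differed from TUM by 0.16 ± 0.16 at day 6 (adjusted p = 0.506) and was lower in OFF6 than in OFF3 (-0.92 ± 0.16, adjusted p = 0.00638). Ackr3, the atypical receptor that takes up CXCL12, showed 7.94, 7.96 and 7.95 in TUM, 7.51, 7.35 and 7.69 in OFF3, 7.20, 7.60 and 7.19 in OFF6, and 7.25, 7.48 and 7.41 in CTL. No OFF3 or OFF6 array reached TUM. The fall of Ackr3 was -0.43 ± 0.11 at day 3 (adjusted p = 0.0113, 0.055 without OFF3 replicate 2) and -0.62 ± 0.11 at day 6 (adjusted p = 0.00101), and TUM exceeded CTL by 0.57 ± 0.11.

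Among the other CXC and CX3C genes, Cxcl13, the B cell attractant, read 9.36, 9.23 and 9.27 in TUM, 9.59, 9.58 and 9.93 in OFF3, 10.10, 11.09 and 10.11 in OFF6, and 6.36, 6.63 and 6.73 in CTL. All OFF6 arrays lay above all TUM and OFF3 arrays. It rose by 1.15 ± 0.22 at day 6 (adjusted p = 0.00128), and differed by 0.41 ± 0.22 at day 3 (adjusted p = 0.191). Its receptor Cxcr5 was within the olfactory range in every group. Cxcl14, a ligand of many epithelia and stroma, gave 10.60, 10.55 and 10.58 in TUM, 10.20, 10.21 and 10.23 in OFF3, 10.16, 10.75 and 10.29 in OFF6, and 9.29, 9.48 and 9.43 in CTL. Its fall at day 3 (-0.36 ± 0.12, adjusted p = 0.0354) was lost with quantile normalisation and without any single array of the 6 compared (adjusted p at least 0.0732). At day 6 it differed by -0.18 ± 0.12 (adjusted p = 0.297), and by -0.35 ± 0.07 without OFF6 replicate 2 (adjusted p = 0.00151). Cxcl16, a membrane-anchored ligand of CXCR6, was 10.77, 10.74 and 10.82 in TUM, 11.25, 11.12 and 10.92 in OFF3, 10.71, 11.0 and 10.71 in OFF6, and 6.46, 6.61 and 6.74 in CTL. TUM exceeded CTL by 4.17 ± 0.10 (18-fold, adjusted p = 4.69e-12), the largest rise of the 51 genes in that comparison. The rise over TUM at day 3 was 0.32 ± 0.10 (adjusted p = 0.0351) and the day 6 difference 0.03 ± 0.10 (adjusted p = 0.849). That day 3 call was lost without any 1 of the TUM arrays or without OFF3 replicate 1 or 2 (adjusted p up to 0.122). Cxcr6 itself stood at 5.10, 5.20 and 5.02 in TUM, 5.20, 5.05 and 5.23 in OFF3, 5.40, 5.69 and 5.36 in OFF6, and 5.11, 5.28 and 4.94 in CTL, within the olfactory range in every group.

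Cx3cl1 (fractalkine), a membrane-bound ligand of endothelium and other cells, had 7.95, 8.22 and 8.04 in TUM, 8.58, 8.68 and 8.19 in OFF3, 8.27, 8.61 and 8.25 in OFF6, and 7.37, 7.04 and 7.30 in CTL. OFF3 replicate 3 lay within the TUM range. Its rise at day 3 (0.41 ± 0.14, adjusted p = 0.0428) was lost without TUM replicate 1 or 3 or OFF3 replicate 1 or 2 (adjusted p up to 0.174). Cx3cr1, its receptor on monocytes and macrophages, was 10.63, 10.73 and 10.65 in TUM, 10.94, 11.04 and 10.82 in OFF3, 10.34, 10.93 and 10.30 in OFF6, and 6.83, 6.50 and 6.69 in CTL. TUM exceeded CTL by 4.0 ± 0.14 (16-fold, adjusted p = 6.62e-11). After doxycycline removal the differences were 0.27 ± 0.14 at day 3 (adjusted p = 0.201) and -0.15 ± 0.14 at day 6 (adjusted p = 0.482), and -0.35 ± 0.09 at day 6 without OFF6 replicate 2 (adjusted p = 0.0112).

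**Figure D3:**
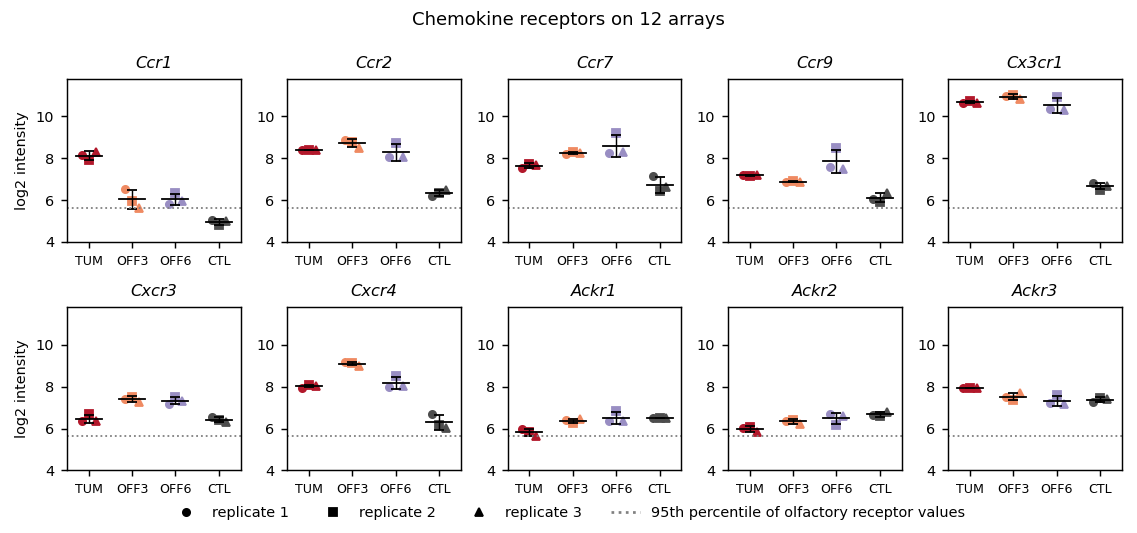
Log2 intensity (y axis) of 10 receptor genes on the 12 arrays by group (x axis), with bars for the mean ± SD and a dotted line at 5.63, the 95th percentile of olfactory receptor values. Ccr1 is highest in TUM, Cxcr4 peaks in OFF3, and Cxcr3 lies above TUM and CTL on every OFF3 and OFF6 array.

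Among receptors of lymphocytes and dendritic cells, Cxcr3 was higher at both times and Ccr7 and Ccr9 at day 6. Cxcr3, a receptor of activated T cells and NK cells, rose by 0.93 ± 0.11 at day 3 (adjusted p = 4.13e-05) and 0.84 ± 0.11 at day 6 (adjusted p = 7.89e-05). Its levels were 6.37, 6.69 and 6.36 in TUM, 7.42, 7.52 and 7.27 in OFF3, 7.15, 7.48 and 7.32 in OFF6, and 6.53, 6.42 and 6.32 in CTL. Ccr7, which guides dendritic cells and T cells to lymph nodes, rose by 0.94 ± 0.22 at day 6 (adjusted p = 0.00643) and differed by 0.60 ± 0.22 at day 3 (adjusted p = 0.0651). OFF6 replicate 2 (9.21) was the highest array for Ccr7, and without it the rise was 0.62 ± 0.15 (adjusted p = 0.00718). Ccr9, the receptor for Ccl25, rose by 0.67 ± 0.21 at day 6 (adjusted p = 0.0257), with 8.50 in OFF6 replicate 2, 7.56 and 7.49 in the other OFF6 arrays and 7.15 to 7.21 in TUM, and by 0.34 ± 0.10 without replicate 2 (adjusted p = 0.0165). That call was lost without TUM replicate 1, 2 or 3 and in a fit of the 6 arrays alone (adjusted p up to 0.0868). Ccl25 differed by 0.02 ± 0.09 at day 6 (adjusted p = 0.89). Lymphocyte and NK markers moved the same way, 5 of 11 higher at day 3, where 13.4% of all genes were, among them Ncr1 (0.98 ± 0.25) and Cd4 (0.91 ± 0.22). Their summed intensity was 1034 to 1092 in TUM, 1409 to 1941 in OFF3, 1263 to 2026 in OFF6 and 523 to 578 in CTL. Cd3e, Cd3d and Cd3g, which mark T cells, differed by 0.09 ± 0.09, 0.13 ± 0.09 and 0.28 ± 0.11 at day 3 (adjusted p = 0.51, 0.355 and 0.0733). The part of these cells in the receptor results was not tested.

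Ccl19, the Ccr7 ligand, has 4 probe sets that disagreed. The brightest, used here, rose by 0.73 ± 0.25 at day 6 (adjusted p = 0.0389) and differed between TUM and CTL by -0.41 ± 0.25 (adjusted p = 0.148), while the other probe sets gave -0.70, 1.83 and -0.63 for TUM minus CTL. RefSeq lists further Ccl19 copies and pseudogenes on chromosome 4, so the Ccl19 values are uncertain. The day 6 call was lost with arrays centred on their median, without TUM replicate 3 and without OFF6 replicate 1 or 3 (adjusted p up to 0.181). At day 6 all 4 probe sets were above TUM, by 0.32 to 1.13.

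The atypical receptors Ackr1 and Ackr2 were lower in TUM than in CTL and higher again after removal. Ackr4 was lower in TUM but did not pass at day 3 or day 6, and Ackr3, given above, went the other way. Ackr1, a chemokine-binding receptor of venules, read 5.99, 5.83 and 5.64 in TUM, 6.40, 6.27 and 6.46 in OFF3, 6.35, 6.85 and 6.35 in OFF6, and 6.50, 6.49 and 6.51 in CTL. It rose by 0.56 ± 0.13 at day 3 (adjusted p = 0.00471) and 0.70 ± 0.13 at day 6 (adjusted p = 0.000927), and OFF6 differed from CTL by 0.02 ± 0.13 (95% confidence interval -0.25 to 0.29). Ackr2, a scavenger of inflammatory CC ligands on lymphatic vessels, was 6.02, 6.07 and 5.83 in TUM, 6.35, 6.43 and 6.23 in OFF3, 6.69, 6.18 and 6.61 in OFF6, and 6.64, 6.59 and 6.79 in CTL. Its rise was 0.37 ± 0.12 at day 3 (adjusted p = 0.0366, but up to 0.152 under both other scalings or without TUM replicate 1 or 3 or OFF3 replicate 1 or 2) and 0.52 ± 0.12 at day 6 (adjusted p = 0.00499). Ackr4, a scavenger of Ccl19 and Ccl25, had 4.88, 5.04 and 4.76 in TUM, 4.93, 5.01 and 5.06 in OFF3, 4.94, 5.09 and 4.86 in OFF6, and 5.52, 5.28 and 5.38 in CTL and lay within the olfactory range in every group. Endothelial markers moved the same way as Ackr1 and Ackr2 at day 0 against CTL and at day 3 against TUM. All 8 were lower in TUM than in CTL and all 8 rose at day 3, where 45.9% and 13.4% of all genes did, led by Vwf (1.18 ± 0.13) and Tek (0.88 ± 0.13), with summed intensity of 3892 to 3974 in TUM, 5918 to 6292 in OFF3, 4653 to 5508 in OFF6 and 6590 to 6722 in CTL. At day 6, 7 of the 8 were above TUM, where 14.9% of all genes were. From day 3 to day 6, 4 of the 8 were lower and 0 higher, where 4.38% and 6.05% of all genes were. Neither Ackr1 nor Ackr2 passed between those days with all arrays. Without OFF6 replicate 2, Ackr2 was higher at day 6 than at day 3 (0.31 ± 0.09, adjusted p = 0.0256). It was also called with array weights. In OFF6, 6 of the 8 endothelial markers were lower than in CTL, where 36.1% of all genes were, and neither receptor passed. With arrays centred on their median, Ackr2 passed as lower than CTL in OFF6 (adjusted p = 0.0175). The part of the endothelial markers in the receptor results was not tested.

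Neutrophil attractants and their receptor did not pass the test at day 3 or day 6. Cxcl1 was 6.32, 6.40 and 6.0 in TUM, 6.22, 6.46 and 6.62 in OFF3, 6.63, 6.33 and 6.59 in OFF6, and 6.89, 6.52 and 6.70 in CTL. Cxcl2 was 5.07, 4.95 and 5.01 in TUM, 4.99, 4.84 and 5.06 in OFF3, 4.88, 4.95 and 5.0 in OFF6, and 4.93, 4.87 and 5.0 in CTL. Cxcl5, made by epithelia and other cells, read 5.06, 4.94 and 4.98 in TUM, 5.05, 5.0 and 5.08 in OFF3, 5.07, 5.10 and 4.90 in OFF6, and 5.17, 5.04 and 5.06 in CTL. For each of these ligands the OFF3, OFF6 and TUM arrays overlapped. Cxcr2, which receives them, was 4.37, 4.46 and 4.39 in TUM, 4.41, 4.41 and 4.57 in OFF3, 4.52, 4.71 and 4.37 in OFF6, and 4.50, 4.44 and 4.53 in CTL. Cxcl2, Cxcl5 and Cxcr2 lay within the olfactory range in all 4 groups, and Cxcl1 lay above it in all 4. The interval of the day 3 difference was -0.10 to 0.49 for Cxcl1 and -0.20 to 0.11 for Cxcl2. Neutrophil markers summed to 461 to 463 in TUM, 663 to 698 in OFF3, 556 to 711 in OFF6 and 442 to 493 in CTL, with 1, 2, 2 and 4 of 11 above the olfactory range. Csf3r (1.19 ± 0.17) and Mpo (0.26 ± 0.09) were the 2 of 11 markers that rose at day 3, where 13.4% of all genes did. Csf3r, the 1 marker above the olfactory range in TUM, averaged 7.26 there and 8.44 in OFF3 and had the largest weight in the sum. Mpo averaged 5.38 in TUM, within the olfactory range, and 5.64 in OFF3. Ly6g, a defining marker, differed by 0.02 ± 0.06 (adjusted p = 0.873). In all, 14 chemokine genes lay within the olfactory range in every group: Ackr4, Ccl26, Ccl28, Ccr4, Ccr6, Ccr8, Cxcl2, Cxcl3, Cxcl5, Cxcl15, Cxcr1, Cxcr2, Cxcr5 and Cxcr6. Of these, with all arrays, Cxcr6 was the 1 that passed at day 6 (0.37 ± 0.10, adjusted p = 0.0148). That call was lost with quantile normalisation and without TUM replicate 3 (adjusted p from 0.0662 to 0.0685), and the difference was 0.27 ± 0.10 without OFF6 replicate 2 (adjusted p = 0.046). Differences from TUM over the 14 genes ran from -0.08 (Cxcr5) to 0.17 (Ccr6) at day 3. At day 6 they ran from -0.06 (Cxcl2) to that of Cxcr6, with Ccr6 next at 0.23. Of the genes above the olfactory range in some group, those not yet given with values were Ccl1, Ccl20, Ccr10, Cxcl11 and Cxcl17, whose day 3 differences ran from -0.14 to 0.25. Among them Ccl1, a CCR8 ligand, rose at day 3 (0.25 ± 0.07, adjusted p = 0.0209, lost without TUM or OFF3 replicate 3 and with quantile normalisation) and at day 6 (0.43 ± 0.07, adjusted p = 0.000658).

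In day 0 tumours Cxcl16, Cx3cr1 and Ccl3 stood furthest above muscle. Against CTL, 20 of the 51 genes were higher in TUM and 15 lower, 35 in all, where 30.3%, 45.9% and 76.2% of all genes were. At least 2-fold higher were 16 of the 51, against 13.7% of all genes, and at least 2-fold lower 2, against 8.65% (22.3% together). The largest rises were Cxcl16 (4.17 ± 0.10), Cx3cr1 (4.0 ± 0.14), Ccl3 (3.94 ± 0.08), Ccl7 (3.67 ± 0.11) and Ccl8 (3.31 ± 0.36), and the largest falls Ccl11 (-2.04 ± 0.12), Ccl24 (-1.21 ± 0.08), Ackr2 (-0.70 ± 0.12), Ackr1 (-0.68 ± 0.13) and Ackr4 (-0.50 ± 0.09). These 10 genes were picked by size in a comparison where 76.2% of all genes passed. Their largest adjusted p was 0.000337. The median of all genes was -0.15 in this comparison, so falls of that size do not set a gene apart. The counts of higher and lower genes were 19 and 23 with arrays centred on their median, which put the median of all genes at -0.29, and 23 and 9 with quantile normalisation. Over all genes, 17218 and 12648 passed under these scalings. Macrophage markers had a median difference of 2.81, where that of the 51 chemokine genes, 14 of them within the olfactory range in every group, was -0.0029. All but 1 of 15 (Cd163, -0.87 ± 0.19) were higher in TUM, where 30.3% of all genes were, and their summed intensity was 30826 to 31927 in TUM and 4962 to 5511 in CTL, with 15 and 14 of 15 over the olfactory range. Their part in the chemokine results was not tested.

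**Figure D4:**
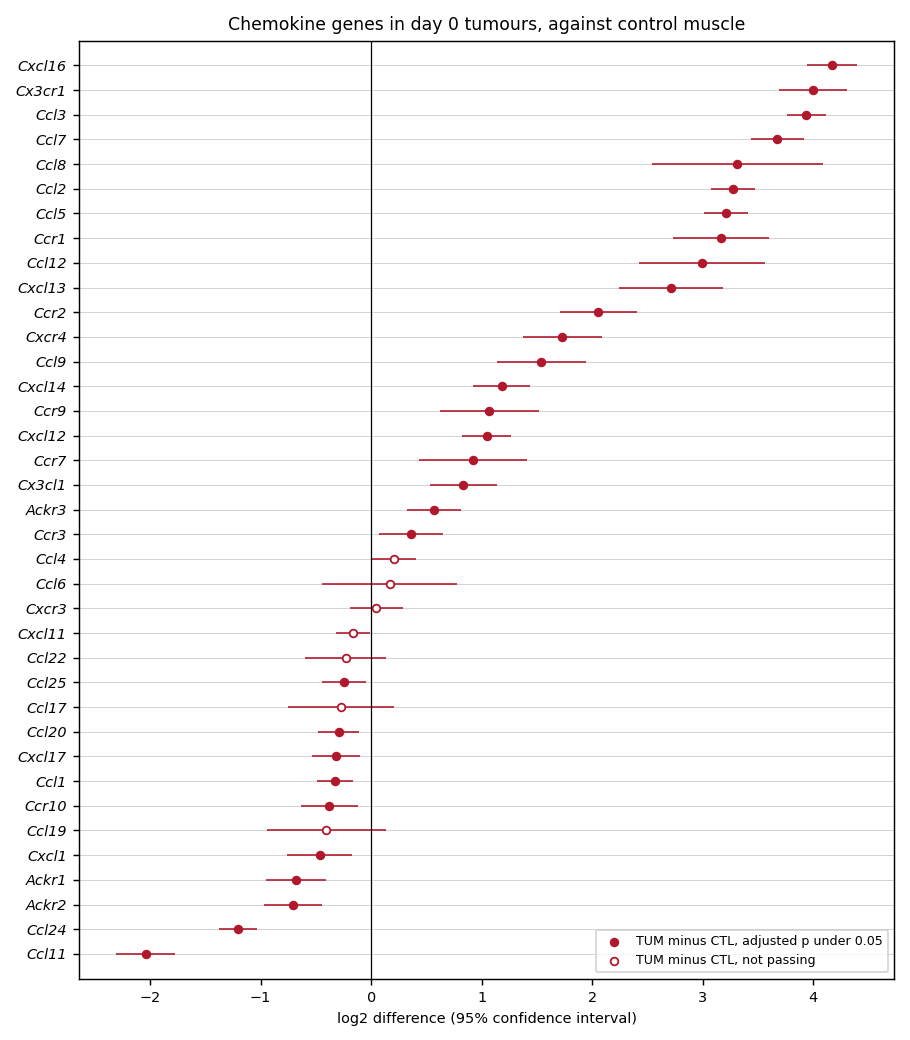
Log2 difference of TUM minus CTL (x axis) with 95% confidence intervals for the 37 chemokine genes above the olfactory range in some group, sorted by size, with filled points for adjusted p under 0.05. Cxcl16 (4.17) and Cx3cr1 (4.00) head the list and Ccl11 (-2.04) ends it.

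Ccl3, Cxcl16 and Ccl7 stood furthest above muscle at 6 days after removal. In OFF6, 22 of the 51 genes were higher than in CTL and 7 lower, 56.9% in all, against 28.1% and 36.1% of all genes and 64.2% in either direction. At least 2-fold higher were 18 and at least 2-fold lower 0, while 10.7% and 6.50% of all genes were (17.2% together). Arrays centred on their median gave 21 and 20, with 16487 passing over all genes. Ccl3 stood highest (5.27 ± 0.08, 38.6-fold), followed by Cxcl16 (4.20 ± 0.10), Ccl7 (4.16 ± 0.11) and Ccl5 (4.03 ± 0.09). Ccr1 exceeded CTL by 1.08 ± 0.20 (adjusted p = 0.000435). Without OFF6 replicate 2, Ccl25 no longer passed as lower than CTL, at -0.17 ± 0.09 (adjusted p = 0.146) against -0.23 ± 0.09 with all arrays (adjusted p = 0.0456). Cxcl15, at -0.13 ± 0.06 with all arrays (adjusted p = 0.083), passed as lower without it (-0.17 ± 0.07, adjusted p = 0.0442).

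Between day 3 and day 6, 10 chemokine genes changed, 7 higher and 3 lower, against 6.05% and 4.38% of all genes and 10.4% in either direction. Changes of at least 2-fold were 0 rises and 1 fall, against 0.381% and 0.161% of all genes (0.542% together). Higher at day 6 were Ccr9 (0.96 ± 0.21), Cxcl13 (0.73 ± 0.22), Ccl2 (0.60 ± 0.09), Ccl11 (0.46 ± 0.12), Ccl7 (0.43 ± 0.11), Ccl3 (0.35 ± 0.08) and Ccl5 (0.33 ± 0.09), and lower Ccl8 (-1.44 ± 0.36), Cxcr4 (-0.92 ± 0.16) and Cxcl12 (-0.46 ± 0.10). The largest adjusted p of these was 0.0496, for Cxcl13. Ccl2, Ccr9 and Cxcr4 kept the call whichever single array was left out, while each of the other 7 lost it without at least 1 array. For Ccl11, Ccl8, Cxcl12 and Cxcl13 those were OFF3 replicates 1 and 2 and OFF6 replicates 1 and 3, for Ccl5 OFF3 replicates 2 and 3 and OFF6 replicates 1 and 3, for Ccl7 OFF3 replicates 2 and 3 and OFF6 replicate 3, and for Ccl3 OFF6 replicates 1 and 3. A limma fit of the 6 arrays alone called 0 chemokine genes, with 14 at an unadjusted p under 0.05 (adjusted p = 0.201 for Cxcl13). Without OFF6 replicate 2 the difference of Ccr9 was 0.64 ± 0.10 and that of Cxcl13 0.40 ± 0.12. The count without that array was 22, 9 higher and 13 lower, with 24.4% of all genes passing, and the 10 genes were among the 22. The genes added were Ccl6 (-1.01 ± 0.07), Ccl17 (-0.73 ± 0.12), Ccr2 (-0.66 ± 0.10), Ccl12 (-0.63 ± 0.17), Cx3cr1 (-0.61 ± 0.09), Ccl9 (-0.55 ± 0.06), Ccl22 (-0.39 ± 0.11), Cxcl16 (-0.39 ± 0.10), Ackr3 (-0.32 ± 0.09) and Ccr3 (-0.30 ± 0.07), all lower at day 6, and Ackr2 (0.31 ± 0.09) and Cxcl11 (0.30 ± 0.07), both higher. The count was 4 without OFF6 replicate 1, 3 without OFF6 replicate 3, 6 without OFF3 replicate 1 and 4 without OFF3 replicate 2. Over all genes, 521, 452, 990 and 905 then passed. On OFF6 replicate 2, 21 of the 37 genes above the olfactory range (56.8%) lay nearer to the OFF3 mean than to the mean of the other OFF6 arrays, beside 62.0% of all genes. Against TUM, leaving that array out gave 28 chemokine genes, 19 higher and 9 lower, where 34.5% of all genes passed.

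**Figure D5:**
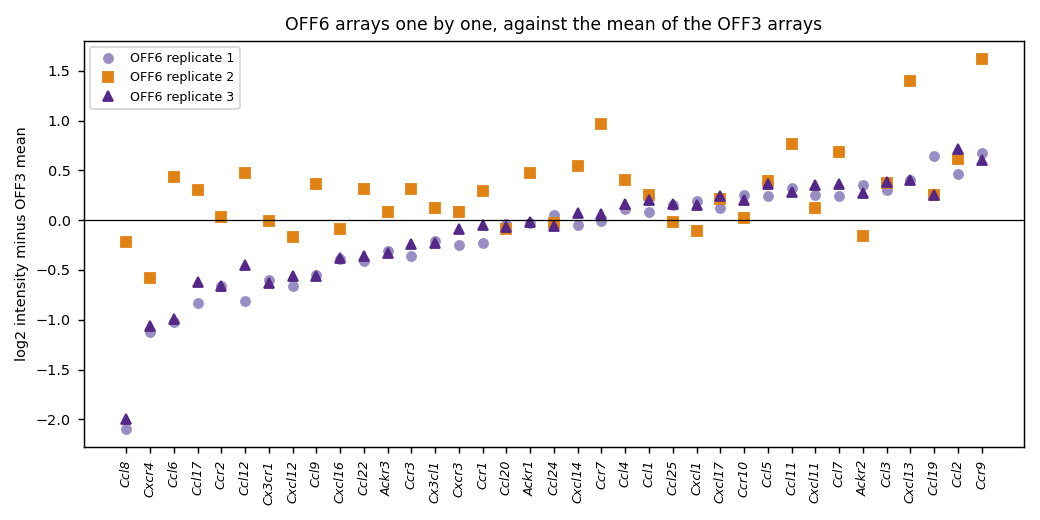
Log2 intensity of each OFF6 array minus the OFF3 mean (y axis) for the 37 chemokine genes above the olfactory range in some group (x axis), sorted by the mean of OFF6 replicates 1 and 3. For Ccl8, replicates 1 and 3 lie far below the OFF3 mean (levels of 8.97 and 9.07) and replicate 2 lies near it (10.84).

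Genes acting with the chemokines were followed as lists, summarised by counts and medians. Of 28 genes of chemokine receptor signalling, 25 were higher in TUM than in CTL and 1 lower (median 1.23, against -0.15 over all genes), where 30.3% and 45.9% of all genes were. At day 3, 6 of them rose and 5 fell (median 0.12, against 0.02 over all genes), where 13.4% and 16.0% of all genes did, with the integrin subunit Itgal (0.73 ± 0.15) and the Rac activator Prex1 (0.70 ± 0.15) moving most. Of 20 chemokine inducers and NF-kappaB genes, 4 rose and 4 fell at day 3 (median -0.03), beside the same shares of all genes. The cytokines Il1a (0.98 ± 0.13) and Il1b (0.81 ± 0.14) rose, and Nfkb2 (-0.61 ± 0.06), Tnf (-0.42 ± 0.13) and Il6 (-0.39 ± 0.11) fell. At day 6, 2 rose and 1 fell (median 0.02), where 14.9% and 16.6% of all genes did. Of 11 chemokine-related genes outside the symbol rule, 6 rose and 2 fell at day 3, where 13.4% and 16.0% of all genes did. Their median was 0.54, against 0.02 over all genes. At day 6, 5 of the 11 rose and 2 fell, where 14.9% and 16.6% of all genes did. Xcr1, a receptor of cross-presenting dendritic cells, rose by 1.39 ± 0.23 and its ligand Xcl1, known from NK and T cells, by 1.19 ± 0.19 at day 3. The left-out ligand Cxcl9 rose by 1.18 ± 0.10 and Cxcl10 fell (-0.78 ± 0.25, adjusted p = 0.0328).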

How the data were processed

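RNA of 12 samples was read on one-colour Affymetrix mouse arrays. The authors deposited linear intensity per probe set, made with RMA per the submitters' processing notes. The version of RMA is not stated there. Probe sets with 1 gene symbol were kept (21640 of 34760, with 1321 carrying several symbols and 11799 none), log2 was taken, and the brightest probe set stood for each of 19937 genes. With limma 3.58.1 in R 4.3.3 (lmFit and eBayes), 1 model of the 12 arrays estimated the 4 group means, and tests were two-sided with Benjamini-Hochberg adjustment over all genes within each of 5 comparisons. The median standard error was 0.086, and precision is limited by having 3 arrays per group. The fit was tested on simulated data. Plots used matplotlib 3.10.9.

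The chemokine genes and all lists were chosen with earlier results of these data known. Values on every array are given for genes called with at least a 2-fold change after removal, for set ligand and receptor pairs, and for the 5 largest rises and 5 largest falls of TUM minus CTL. Of each list except the skeletal muscle markers, the 2 largest day 3 differences are named. Ccl1, Ccl19, Ccl25, Ccr7, Ccr9 and Cxcr3, and the other list genes given with values, were chosen after their values were seen. Alternatives covered probe set averaging, a filter on low values, quantile normalisation, median centring, a trended and robust variance, array weights, the replicate number as a block, the compared arrays alone, and each array left out. Deviations from the group means of samples with the same number correlated at -0.29 to 0.25, in no comparison clearly above 0 in every pair (OFF6 and CTL came nearest, with 0.19, 0.09 and 0.01), so the numbers were not taken to pair samples. Protein sequences were not analysed here.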

Additional observations from a re-analysis of the deposited data

Results flagged for a closer look

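Levels differed between day 6 and day 3 after doxycycline removal for 10 chemokine genes by the limma test of OFF6 minus OFF3. Higher in OFF6 were Ccr9 (0.96), Cxcl13 (0.73), Ccl2 (0.60), Ccl11 (0.46), Ccl7 (0.43), Ccl3 (0.35) and Ccl5 (0.33), and lower Ccl8 (-1.44), Cxcr4 (-0.92) and Cxcl12 (-0.46), all in log2 units.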

How the results depend on the processing

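Of the values of single chemokine genes under the alternatives, 2328 kept direction and call, 92 gained a call, 99 lost one and 1 turned. The last was Cxcl2 in OFF6 minus CTL, at -0.17 with arrays centred on their median (adjusted p = 0.048). Array weights gave 34 called chemokine genes in OFF3 minus TUM, 33 in OFF6 minus TUM and 28 in OFF6 minus OFF3. Of all 19937 genes, 11175, 10545 and 8424 were then called. The filter on low values, which left 23 of the 51 genes, gave 20 in TUM minus CTL and 19 in OFF6 minus CTL. Over all genes kept by the filter, 8518 and 8089 were called. Fitting only the 6 arrays compared gave 0 in OFF6 minus OFF3 by limma, with 14 at an unadjusted p under 0.05 and 30 genes called of all. With single arrays left out, the counts ran from 13 to 18 in OFF3 minus TUM, 17 to 28 in OFF6 minus TUM, 30 to 33 in TUM minus CTL and 28 to 30 in OFF6 minus CTL. In OFF6 minus OFF3 they ran from 3 to 22, with 22 without OFF6 replicate 2, 4 without OFF6 replicate 1, 3 without OFF6 replicate 3, 6 without OFF3 replicate 1 and 4 without OFF3 replicate 2. With the replicate number as a block the counts were 17 in OFF3 minus TUM, 20 in OFF6 minus TUM, 8 in OFF6 minus OFF3, 37 in TUM minus CTL and 28 in OFF6 minus CTL. Over all genes they were 5476, 5891, 1654, 14821 and 12279. The block ended the calls of Ackr2 and Cxcl16 in OFF3 minus TUM, Ccl19 in OFF6 minus TUM, Ccl5 and Cxcl13 in OFF6 minus OFF3 and Ccl25 in OFF6 minus CTL, and added that of Ccl4 in TUM minus CTL. Except where the alternative itself leaves out genes or arrays, the cause was not tested.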
